A study of Mus musculus with 9 samples.

Results

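The genes described here were 10 mouse genes of mesenchyme, the loose connective tissue of the embryo. They, and the gene lists used below, were chosen by name with earlier results of these data known. Members were the proteoglycans Dcn and Lum, the adhesion and matrix proteins Fn1, Postn, Fbn1, Lox and Thy1, and the regulators Pdgfra, Pdgfrb and Twist1. Every probe that the annotation of the array assigned to 1 of these symbols was read on all 9 arrays of the series. A probe was found for 9 of the 10 genes, with 21 probes in all, among 46643 probes and 19403 named genes. Fbn1, which encodes the microfibril protein fibrillin-1, had no probe under its symbol and was not analysed here. Of the 21 probes, 17 were detected on at least 1 array, and each of the 9 genes had at least 1 detected probe.

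The arrays followed mouse embryonic stem cells (mESCs) of the B6G-2 line, spelled G6B-2 in the labels, through neural differentiation, and the labels name no genetic difference between the groups. The cells were taken as mESCs on day of differentiation (DoD) 0, as embryoid bodies (EBs, floating aggregates in medium without leukemia inhibitory factor) on DoD 2 and DoD 8, and as attached cultures in neural medium on DoD 36, which the labels call day 29. Retinoic acid (RA) or vehicle was given from DoD 2 to DoD 6. C is the vehicle control with 0.1% ethanol per the labels, and the series text names another solvent. R9, R8 and R7 are 1, 10 and 100 nM RA. DoD 8 was measured with all 4 of these, and DoD 36 without R9.

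Each condition had 1 array. RNA of 6 biological replicates was mixed per condition according to the methods, so the values held no replicate error and no test between conditions could be made. The R9 array is known from its label only. A gene was called higher or lower when its signal differed by at least 2-fold. As a yardstick, the R9 and C arrays of DoD 8 were set against each other, and a robust SD of the log2 differences among probes of similar signal follows a value as "yardstick SD". It includes any effect of 1 nM RA and leaves out most of the biological spread. A signal under 29.1 units was treated as not detected, and a difference against such an array is given as a bound. Detected probes numbered 20737 to 23008 per array. The 0.99 quantile of background signal was 24.7 to 32.2 on 7 arrays, and was 56.0 and 77.6 with R8 and R7 on DoD 36. Of 7 pluripotency markers, 6 were detected on the DoD 0 array, and Dppa5a was not. All comparisons with RA on 1 day share the C array of that day. In such bulk samples, fewer cells of a type and less RNA per cell cannot be told apart.

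Mesenchymal cells build the matrix around them. Fibronectin is laid down early as a scaffold that cells grip through integrins, collagen fibrils and elastic fibres are then assembled on it, lysyl oxidase crosslinks both, and small leucine-rich proteoglycans such as decorin and lumican sit on the fibrils and space them. Platelet-derived growth factor (PDGF) receptors alpha and beta drive the growth and movement of mesenchyme, pericytes and, for the alpha receptor, oligodendrocyte progenitors and extraembryonic endoderm. RA is best known in these cultures as an inducer of neural fate, and it also acts on mesoderm and endoderm.

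Dcn and Lum showed the largest differences with 100 nM RA among the 9 genes on DoD 8, and both were again higher with 100 nM RA on DoD 36. Dcn encodes decorin, a proteoglycan that binds collagen fibrils and growth factors of the TGF-beta family. The signal of its brightest probe was 90.1 on DoD 0 and 129.0 on DoD 2. On DoD 8 it was 150.8 in C, 559.0 in R9, 850.0 in R8 and 3418.8 in R7. The DoD 36 arrays gave 4780.8 in C, 8585.3 in R8 and 19082.2 in R7. The order of the 9 arrays thus followed day and, within a day, dose. Against C of DoD 8 the log2 difference was 1.89 in R9, 2.50 in R8 (yardstick SD 0.299 for both) and 4.50 in R7 (yardstick SD 0.245), the last being 22.68-fold. Against C of DoD 36 it was 0.84 in R8, which was under 2-fold, and 2.00 in R7 (yardstick SD 0.15), which was 3.99-fold by unrounded signals. The control itself was 31.71-fold higher on DoD 36 than on DoD 8.

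The other probes of Dcn went the same way with 100 nM RA wherever they were detected. The second brightest had log2 differences of 1.73, 2.88 and 5.03 in R9, R8 and R7 on DoD 8, and of 1.28 and 2.82 in R8 and R7 on DoD 36. The third was not detected in C of DoD 8 and was at least 5.09 higher on the log2 scale in R7, then 2.72 and 3.74 higher in R8 and R7 on DoD 36. The 2 dimmest probes were detected with RA and in no C array. The probes parted between R7 of DoD 8 and C of DoD 36, where the brightest ran from 3418.8 to 4780.8 and the second from 1425.2 to 1797.5, while the third ran from 991.4 to 489.4. The difference of R8 on DoD 36 was therefore past 2-fold on the second brightest probe and on the third, but not on the brightest one. On the brightest probe it passed 2-fold without scaling, at 1.15, and with quantile normalization, at 1.28. It stayed under 2-fold with the other scalings tried.

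Lum encodes lumican, a keratan sulfate proteoglycan that regulates the assembly of collagen fibrils. Its 1 probe was not detected on DoD 0, on DoD 2, or in C and R9 on DoD 8. It gave signals of 72.2 in R8 and 311.3 in R7 on DoD 8. The later arrays gave 202.0 in C, 574.9 in R8 and 2483.1 in R7 on DoD 36. Lum thus appeared first with 10 nM RA and was highest with 100 nM RA on DoD 36. The difference from C of DoD 8 was at least 1.31 in R8 and at least 3.42 in R7 on the log2 scale. The DoD 36 differences were 1.51 (yardstick SD 0.299) in R8 and 3.62 (yardstick SD 0.245) in R7, or 2.85-fold and 12.29-fold. With a detection signal of 50 the bound for R8 on DoD 8 was 0.53, which was under 2-fold.

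Dcn and Lum are neighbours on mouse chromosome 10, where the next protein-coding genes after Lum are Kera and Epyc, 2 further proteoglycans of the same family. Kera and Epyc were not detected on any array. Of the 10 other small leucine-rich proteoglycan genes listed, all had a probe. On DoD 8 with 100 nM RA, 4 could be measured and none was called, where 5.58% of all genes were called higher and 3.47% lower, and their median log2 difference was 0.42. On DoD 36 with 100 nM RA, 5 of 7 measured genes were called higher and none lower, beside 12.7% and 12.3% of all genes, with a median of 2.19. The largest were Prelp, a proteoglycan of basement membrane and cartilage, at 4.66 (785.1 in C, 19808.9 in R7), Fmod, encoding fibromodulin, at no less than 3.69, and Bgn, encoding biglycan, at 3.10. The members Dcn and Lum differed from C on DoD 8 in R7, and Bgn, the gene closest in kind to Dcn, was not called there (0.46, yardstick SD 0.393).

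**Figure D1:**
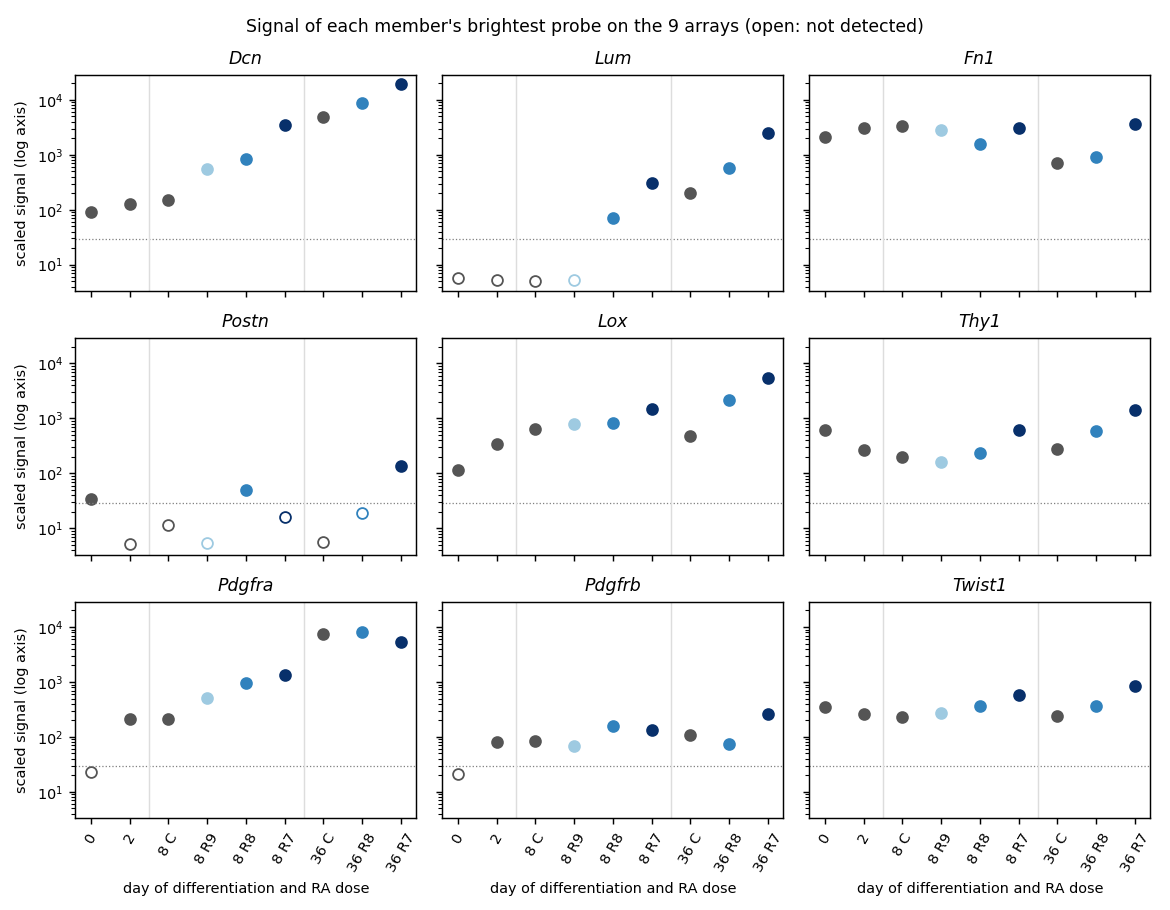
Scaled signal (log axis) of the brightest probe of each of the 9 genes on the 9 arrays, grouped by day of differentiation and RA dose (C, vehicle; R9, R8, R7, 1, 10 and 100 nM), with open points for signals not detected and a dotted line at the detection level of 29.1. Dcn runs from 90.1 on DoD 0 to 19082.2 in R7 on DoD 36, and Pdgfra is at 7584.9, 7983.5 and 5438.9 in C, R8 and R7 on DoD 36.

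Fn1 encodes fibronectin, which binds cells, collagen and heparan sulfate. It was detected from DoD 0 on and was lowest in the DoD 36 control. Its brightest probe gave 2116.2 on DoD 0, 3023.6 on DoD 2, and 3332.9, 2798.4, 1559.6 and 3110.4 in C, R9, R8 and R7 on DoD 8. Signals on DoD 36 were 709.2 in C, 924.3 in R8 and 3581.3 in R7. The control fell by 2.23 on the log2 scale between DoD 8 and DoD 36 (4.70-fold lower, yardstick SD 0.212), and the R7 arrays of both days differed by 0.20 on this probe. On DoD 8 the R8 array was 2.14-fold lower than C (log2 -1.10, yardstick SD 0.18), while R9 (-0.25) and R7 (-0.10) were not called. On DoD 36 R7 was 5.05-fold higher than C (log2 2.34, yardstick SD 0.18) and R8 was not called (0.38).

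The probes of Fn1 did not all follow this course. A dimmer probe gave 192.8, 66.8 and 461.2 in C, R8 and R7 on DoD 36, so that R8 lay 1.53 below C on the log2 scale and R7 lay 1.26 above it. Another probe ran from 221.9 to 465.9 on DoD 8 and was detected on DoD 36 in R8 alone, barely above the detection level (26.8 after scaling). The dimmest was detected at 84.2 on DoD 2 and at 48.5 and 82.4 in C and R8 on DoD 8, and on no other array. The lower level of R8 on DoD 8 was shared by 3 of the 4 probes, with log2 differences of -1.10, -1.07 and -1.07, and the dimmest probe gave 0.76. The annotation does not say which transcript each probe reads. Averaged over its probes, Fn1 was at -0.62 in R8 on DoD 8, under 2-fold, and R8 on DoD 36 changed sign to -0.48. The difference between the R7 arrays of both days changed sign as well, to -1.14, and was past 2-fold. It was -0.01 on the probe with 461.2 in R7 and no more than -3.62 on the probe not detected in R7 of DoD 36.

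Postn encodes periostin, a matricellular protein of periosteum, valves and ligament. Its brightest probe was detected on 3 arrays, at 33.9 on DoD 0, 49.2 in R8 on DoD 8 and 134.3 in R7 on DoD 36. Its 3 other probes were not detected on any array. The 2 lower signals lay close to the detection level. R7 on DoD 36 was at least 4.12-fold above C (log2 of no less than 2.04), and with a detection signal of 100 this bound was 0.26.

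**Figure D2:**
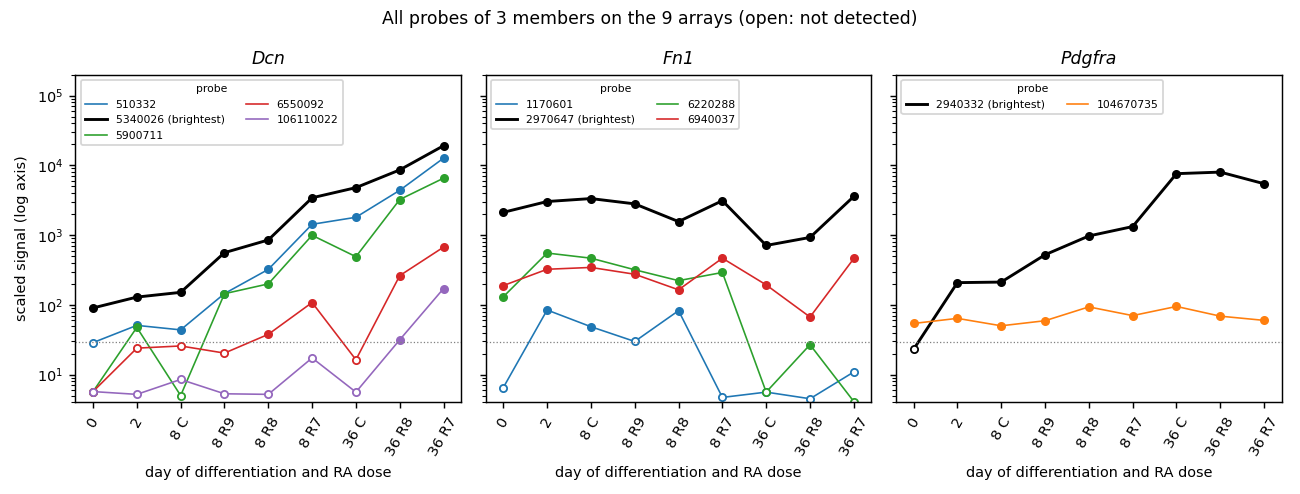
Scaled signal (log axis) of every probe of Dcn, Fn1 and Pdgfra on the 9 arrays, with the brightest probe in black, open points for signals not detected and a dotted line at 29.1. The brightest Dcn probe is higher in C of DoD 36 than in R7 of DoD 8 (4780.8 against 3418.8) and the third one is lower (489.4 against 991.4), the Fn1 probes part on DoD 36 (709.2 to 3581.3 on the brightest probe, not detected in C and R7 on 2 others), and the second Pdgfra probe is at most 94.7.

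Genes of matricellular and adhesion glycoproteins, which act beside fibronectin and periostin, were divided. With 100 nM RA on DoD 36, 7 of 10 measured genes were called higher and 3 lower, beside 12.7% and 12.3% of all genes. Vtn, encoding the adhesion protein vitronectin, was higher by 4.15 on the log2 scale, Thbs2, encoding thrombospondin 2, by 3.21, and Tnc, encoding tenascin C, by 2.91. Ccn2 (-1.28), Spon2 (-1.12) and Sparc (-1.06) were lower. Of the integrin genes listed, 2 of 7 measured were called higher and 1 lower, beside the same shares. Itga8, a fibronectin receptor chain, was higher by no less than 1.71, and Itga11, which encodes a chain that binds collagen, by 2.60. Itgav, the alpha-v chain, was lower (-1.03). On DoD 8 with 100 nM RA the glycoprotein list had 3 of 10 genes higher and none lower (5.58% and 3.47% of all genes). Tnc was at 2.09 there, and Itga8 was at least 2.45 higher while Itga11 was at -1.60.

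Lox encodes lysyl oxidase, which crosslinks collagen and elastin. Its 1 probe gave 114.4 on DoD 0, 340.5 on DoD 2, and 641.3, 774.4, 811.4 and 1478.8 in C, R9, R8 and R7 on DoD 8. The DoD 36 arrays gave 469.2 in C, 2122.8 in R8 and 5325.7 in R7. The signal followed the dose on both days and parted more on DoD 36. On DoD 8 only R7 was called, at 1.21 on the log2 scale (2.31-fold, yardstick SD 0.212). On DoD 36 both doses were called, at 2.18 (4.52-fold, yardstick SD 0.212) in R8 and 3.50 (11.35-fold, yardstick SD 0.18) in R7.

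Genes of collagens and elastic fibres, which include the substrates of Lox, were also higher on that array. All 7 measured fibroblast collagen genes were called higher in R7 on DoD 36, where 12.7% of all genes were. Their median log2 difference was 3.10, with Col1a2 at 4.60 and Col1a1 at 3.66. All 13 measured elastic fibre and microfibril genes were called higher as well, with a median of 2.75. Ltbp2, a microfibril protein, was at no less than 6.38, Mfap4, which binds elastin and collagen, at 5.69, and Eln, encoding elastin, at no less than 5.52. On DoD 8 with 100 nM RA, 5 of 7 collagen genes were higher and none lower (median 1.84). Of the elastic fibre genes, 7 of 14 were higher and 2 lower (median 0.79), beside 5.58% and 3.47% of all genes. Mfap4 led there too, at 4.77, and Ltbp4 (-1.16) and Fbln5, at no more than -1.02, were the 2 lower genes.

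The other crosslinking and processing enzymes were divided. On DoD 36 with 100 nM RA, 2 of 12 were called higher and 2 lower, close to the shares of all genes (12.7% and 12.3%), with a median of -0.43. Loxl1, a lysyl oxidase of elastic fibres, was higher by 3.37, and Pcolce, which enhances procollagen processing, by 2.30. Loxl2 was lower (-1.64), and so was Plod2 (-1.23), a lysyl hydroxylase. The DoD 36 control was already high in this list, with 8 of 11 measured genes called higher and 1 lower than in C of DoD 8. In that comparison 22.7% of all genes were called higher and 16.5% lower, and Lox was at -0.45.

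Thy1 encodes a GPI-anchored surface glycoprotein that in mice marks neurons, thymocytes and many fibroblasts. The detected probe gave 604.3 on DoD 0, 265.3 on DoD 2, and 201.6, 159.6, 236.2 and 616.9 in C, R9, R8 and R7 on DoD 8. On DoD 36 the signals were 273.7 in C, 579.0 in R8 and 1408.6 in R7. A second probe was at the floor on every array. The level fell 2-fold or more after DoD 0 (log2 -1.19, yardstick SD 0.299) and was higher again with 100 nM RA, by 1.61 on DoD 8 (3.06-fold) and by 2.36 on DoD 36 (5.15-fold). R8 on DoD 36 was at 1.08 and fell to between 0.83 and 0.99 under 4 of the other settings, so that its call depended on the scaling.

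Markers of cells that carry Thy1 moved as follows. Of 9 neuron markers, 4 of 7 measured were higher and none lower in R7 on DoD 8 (5.58% and 3.47% of all genes). Dcx, which encodes a microtubule protein found in young neurons, stood at 4.24 there. On DoD 36 1 of 8 was higher and 3 were lower in R7 (12.7% and 12.3% of all genes). The higher one was Map2, a microtubule protein of dendrites, at no less than 1.77 (111.1 in R7, not detected in C). Dcx was at -1.19 and Snap25, a synaptic protein, at -1.45. In R8 on DoD 36, 2 of 8 neuron markers were higher and none lower (11.2% and 8.57% of all genes). Their summed signal was 1210.1 to 2351.2 on DoD 8, and 2882.3, 6595.3 and 2069.9 in C, R8 and R7 on DoD 36. Nefl was not detected on any array. Of 3 T cell markers with a probe, at most 1 was detected on any array, with a summed signal of 94.3 or less. Fibroblast collagens are given above. The part of each cell type in the Thy1 signal was not tested.

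Pdgfra encodes PDGF receptor alpha. It differed with RA on DoD 8 but was not called with either dose on DoD 36, where the control was already high. Its brightest probe was not detected on DoD 0 (23.0) and gave 207.8 on DoD 2. On DoD 8 it gave 211.7 in C, 521.2 in R9, 969.9 in R8 and 1322.5 in R7. The DoD 36 arrays gave 7584.9 in C, 7983.5 in R8 and 5438.9 in R7. The levels of DoD 8 thus stood in the order of dose, and those of DoD 36 were all several times higher and close to each other. Against C the log2 difference on DoD 8 was 1.30 in R9, 2.20 in R8 (yardstick SD 0.299 for both) and 2.64 in R7 (yardstick SD 0.245), or 2.46-, 4.58- and 6.25-fold. The DoD 36 values were 0.07 in R8 and -0.48 in R7 (yardstick SD 0.15), and with quantile normalization the R7 value changed sign to 0.08. The control was 35.83-fold higher on DoD 36 than on DoD 8 (log2 5.16, yardstick SD 0.212). The second probe of Pdgfra was detected on every array at no more than 94.7, and none of its RA differences was called, so that the mean of both probes put R9 on DoD 8 at 0.77, under 2-fold.

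Among the genes with a window in the RefSeq promoter set as searched here, which left out a chromosome, Pdgfra and Twist1 were called with RA on DoD 8. Their 250 bases before the start are shown to compare both. The window of Pdgfra is chr5:75152001-75152250 on the plus strand of GRCm38.p6. Capitals mark matches, on either strand, to the E-box CANNTG, the TATA box TATAAA, the CAAT box CCAAT and the GC box GGGCGG.
Pdgfra: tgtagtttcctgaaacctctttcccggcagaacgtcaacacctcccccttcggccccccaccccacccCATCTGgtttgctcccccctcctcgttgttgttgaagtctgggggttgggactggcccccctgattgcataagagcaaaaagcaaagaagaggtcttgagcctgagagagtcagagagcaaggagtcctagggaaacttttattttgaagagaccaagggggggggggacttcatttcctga
The window held 1 E-box, which starts 182 bases before the gene start, and no match to the other 3 motifs. An E-box was found in 66.2% of all 32851 windows. Neither AGGTCA nor AGTTCA, the half-sites that RA receptors can bind, was matched in either orientation, against 14% and 11.8% of all windows. These letters were simply not in this window. Of the windows of Postn, not printed here, 1 held AGGTCA, 138 bases before its start, and another held AGTTCA, at 162.

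Endoderm also carries Pdgfra. Of 10 endoderm markers, 4 of 9 measured were higher and 1 lower in R9 on DoD 8. In R8 6 of 10 were higher and in R7 7 of 9, and none was lower in either. Of all genes, 2.18%, 3.2% and 5.58% were higher in R9, R8 and R7. Between R7 and R8 of DoD 8 none of 10 was called and their median was -0.20, where Pdgfra was at 0.45. Sox17 was at 2.42 and Gata6 at 2.23 in R7, both transcription factors of primitive endoderm. From C of DoD 8 to C of DoD 36, 9 of 10 rose past 2-fold (22.7% of all genes did), with a median of 3.49. On DoD 36 none was higher and 4 of 10 were lower in R7 (12.7% and 12.3% of all genes), where Pdgfra was not called (-0.48). Gata6 was at -1.45 and Ttr, a transport protein of visceral endoderm, at -1.88. The summed signal of the list was 2299.1 on DoD 0, 10306.3 to 25394.9 on DoD 8, and 121976.3, 105753.8 and 67036.6 in C, R8 and R7 on DoD 36. Oligodendrocyte progenitors are another source of Pdgfra. Their marker Olig1, a transcription factor, was 12405.5 on DoD 0, where Pdgfra was not detected, and 2569.0, 14635.9 and 23616.8 in C, R8 and R7 on DoD 36. The progenitor list had 3 of 5 measured genes higher in R7 on DoD 36, with Olig2 at no less than 4.53. Its summed signal was 2926.2 in C and 24816.0 in R7, and most of both sums was Olig1. Cspg4 of this list was 300.6 in C and 309.3 in R7, and Nkx2-2 was detected in neither. The part of either cell type in the Pdgfra signal was not tested.

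**Figure D3:**
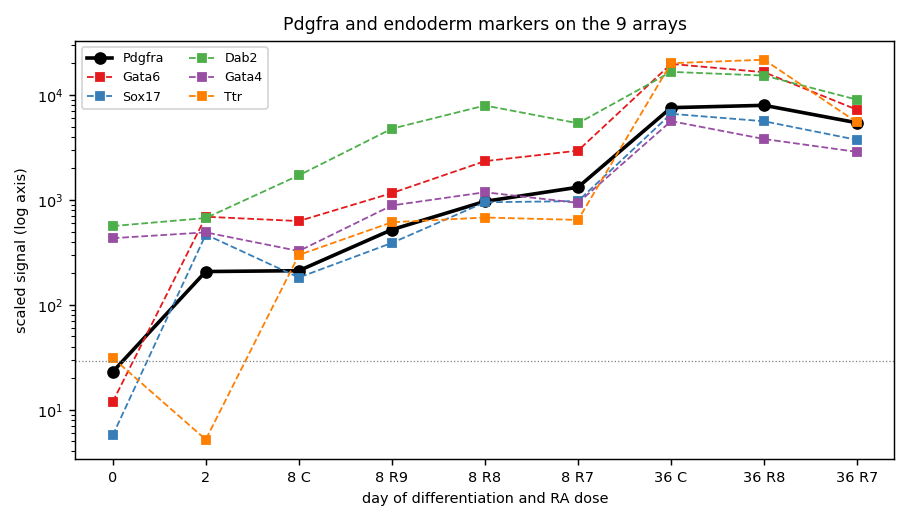
Scaled signal (log axis) of the brightest Pdgfra probe (black) and of 5 of the 10 endoderm markers on the 9 arrays, by day of differentiation and RA dose, with a dotted line at 29.1. The 5 were picked and are all higher in R7 than in C on DoD 8. Of those not drawn, Sox7 (2.31) and Col4a1 (6749.5 in C, 13826.9 in R7) are higher there. Thbd (-0.81) and Afp (-0.39) are lower, and Lama1 is detected in neither. Pdgfra goes from 211.7 to 1322.5 over the doses of DoD 8, where Gata6 goes from 629.4 to 2951.7. In R7 of DoD 36 both are below C (5438.9 against 7584.9 and 7235.4 against 19822.1), Pdgfra by under 2-fold and in a direction that depends on the scaling.

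Pdgfrb encodes PDGF receptor beta, the receptor of pericytes and vascular smooth muscle. Its 1 probe was dim. It was not detected on DoD 0 (21.1) and gave 79.4 on DoD 2, 84.7, 68.8, 158.8 and 136.0 on the DoD 8 arrays of C, R9, R8 and R7, and 109.1, 75.7 and 264.5 in C, R8 and R7 on DoD 36. At these signals the yardstick SD was 0.331 to 0.456. The differences of DoD 8 were under 2-fold, at -0.30, 0.91 and 0.68 in R9, R8 and R7. On DoD 36 R8 was at -0.53 and R7 was called at 1.28 (2.42-fold, yardstick SD 0.331). Of 9 pericyte and smooth muscle markers, 3 of 6 measured were higher and none lower in R7 on DoD 36 (12.7% and 12.3% of all genes). Acta2, smooth muscle actin, was at 1.15, and Cnn1 and Abcc9 were not detected on any array. Their summed signal was 3985.0, 6087.9 and 8721.0 in C, R8 and R7. The sum was higher on DoD 8, at 17677.5 to 27873.5. Acta2 made up most of it on both days, with 17417.6 of 18414.8 in C on DoD 8 and 3589.2 of 3985.0 in C on DoD 36. In R7 on DoD 8, 1 of 7 markers was higher and none lower (5.58% and 3.47% of all genes). From R7 of DoD 8 to R7 of DoD 36, none of 7 was higher and 5 were lower (17.6% and 14.5% of all genes), while Pdgfrb was at 0.96. The part of these cells in the Pdgfrb signal was not tested.

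The 4 genes of PDGF ligands were detected on every array. In R7 on DoD 36 none was called, with Pdgfa at -0.68 and Pdgfb at 0.35. On DoD 8 in R7, Pdgfc was higher by 1.36 (128.5 in C, 330.6 in R7) and Pdgfb was lower (-1.12, 1595.2 in C, 736.2 in R7), while Pdgfa, the main ligand of the alpha receptor, was at -0.53. The ligands as a list thus had 1 of 4 genes in each direction in R7 on DoD 8 (5.58% and 3.47% of all genes). Of the receptors, Pdgfra was called higher on that array (2.64) and Pdgfrb was not called (0.68).

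Twist1 encodes a bHLH transcription factor of mesoderm and neural crest mesenchyme, which pairs with E proteins. Its 1 probe gave 357.2 on DoD 0, 257.6 on DoD 2, and 229.6, 268.6, 359.4 and 570.7 in C, R9, R8 and R7 on DoD 8. The DoD 36 signals were 240.2 in C, 361.8 in R8 and 837.0 in R7. On both days the signal stood in the order of dose, and the C arrays of both days differed by 0.06. R7 was called on DoD 8 at 1.31 (2.49-fold) and on DoD 36 at 1.80 (3.48-fold), with a yardstick SD of 0.299 for both. R8 was under 2-fold on both days, at 0.65 and 0.59 (yardstick SD 0.299 for both). The window before its start is chr12:33957421-33957670 on the plus strand of GRCm38.p6, with capitals as above.
Twist1: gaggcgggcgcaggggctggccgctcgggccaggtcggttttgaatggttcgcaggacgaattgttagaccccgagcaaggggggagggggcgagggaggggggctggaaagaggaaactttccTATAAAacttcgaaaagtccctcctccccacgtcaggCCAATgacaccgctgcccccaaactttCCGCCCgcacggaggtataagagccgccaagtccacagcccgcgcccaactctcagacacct
It held 1 TATA box, 126 bases before the start, 1 CAAT box at 89 and 1 GC box at 62, found in 12.4%, 33.8% and 32.7% of all windows. It held no E-box and neither of the half-sites. The windows of both genes also differed in base composition. Twist1 had 18 CG pairs and 62.4% G and C, and Pdgfra had 4 CG pairs and 54.4%, beside medians of 6 pairs and 52.4% over all windows.

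Other mesenchyme transcription factors were mixed. In R7 on DoD 8, 3 of 13 measured genes were called higher and none lower (5.58% and 3.47% of all genes). They were Msx1, at no less than 3.14, Meox1, at no less than 1.98, and Zeb1 (1.12), a repressor of epithelial genes. In R7 on DoD 36, 5 of 16 were higher and 1 lower (12.7% and 12.3% of all genes). Meox2 (220.1 in R7) and Foxf1 (66.4 in R7), neither detected in C, were among the higher ones. So were Id1 (2.47), Id3 (1.53) and Id2 (1.04), which encode inhibitors that bind the E protein partners of bHLH factors. Snai1, another repressor of epithelial genes, was lower (-1.62). Tcf3, which encodes an E protein, was at -0.33. Of mesenchyme surface and cytoskeleton genes, 7 of 8 measured were higher in R7 on DoD 36, with Vim, encoding vimentin, at 1.58, Cdh2, encoding N-cadherin, at 2.36 and Fap, a fibroblast protease, at 1.58. On DoD 8 in R7 none of 7 was higher and Cd44 was lower (-1.03). Astrocytes and young neural cells also carry vimentin and N-cadherin, and 5 of 6 measured astrocyte markers were higher in R7 on DoD 36, with Gfap at 7.24. Their summed signal was 1191.6 in C and 39192.5 in R7. The part of astrocytes in these values was not tested.

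Counted together, the 9 genes differed most with 100 nM RA. They were chosen with earlier results of these data known, so their counts beside the shares of all genes are descriptions only. In R7 against C on DoD 8, 8 could be measured, 6 were called higher and none lower, where 5.58% of all measured genes were called higher and 3.47% lower. The median log2 difference of the members was 1.46, and that of all genes was -0.05. In R8 on DoD 8, 3 of 9 were higher and 1 lower (3.2% and 2.08% of all genes), with a median of 0.75. In R9, Dcn and Pdgfra were the 2 of 7 that were higher and none was lower (2.18% and 1.5% of all genes), with a median of 0.23. Between the doses, R7 exceeded R8 by 2-fold or more for Dcn (2.01), Lum (2.11) and Thy1 (1.39), 3 of 9 genes, and none was lower (3.73% and 2.7% of all genes), and Fn1 at 1.00 was just under 2-fold.

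On DoD 36, 8 of 9 genes were called higher in R7 than in C and none lower, where 12.7% of all genes were called higher and 12.3% lower. The median was 2.04 for the members and -0.30 for all genes, and Pdgfra was the gene not called. In R8, 3 of 8 were higher and none lower (11.2% and 8.57% of all genes), with a median of 0.72 beside -0.16. R7 exceeded R8 by 2-fold or more for 8 of 9 genes and was 2-fold lower for none (7.67% and 7.23% of all genes), with a median of 1.33. The value of Postn in these counts was a bound. The all-gene median on this day depended on the scaling. Over genes detected on both arrays it was -0.34 in R7 and ran from -0.56 with the 0.75 quantile as the scale to 0.12 without scaling. The 8 genes called higher in R7 stayed 2-fold or more above C under every scaling tried.

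**Figure D4:**
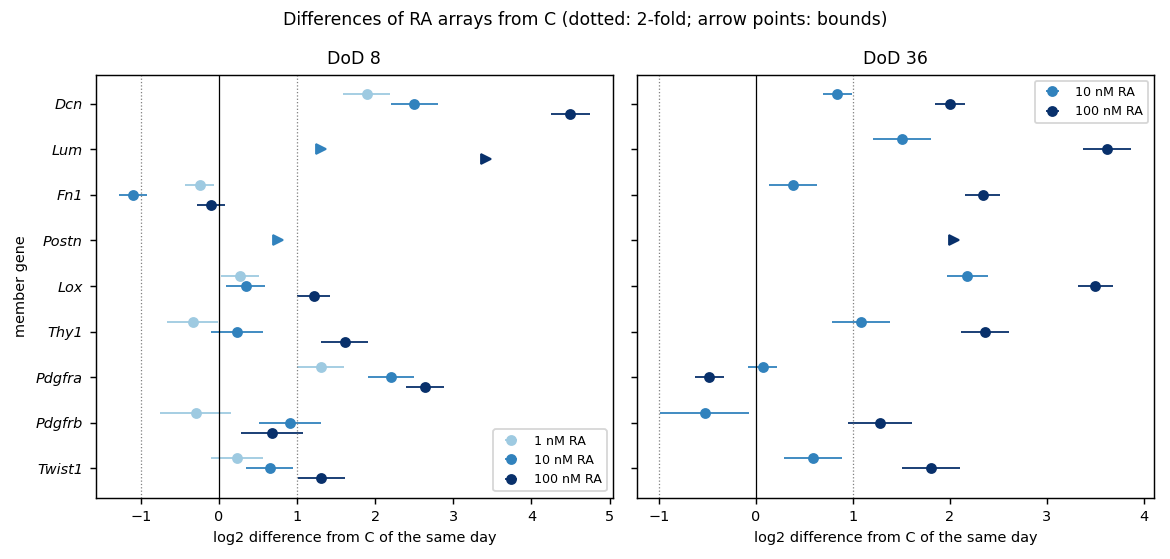
Log2 difference from C of the same day for each gene, at 1, 10 and 100 nM RA on DoD 8 (left) and at 10 and 100 nM on DoD 36 (right), with bars of 1 yardstick SD, arrow points for bounds and dotted lines at 2-fold. On DoD 8 Dcn reaches 4.50 and Fn1 is at -1.10 in R8, and on DoD 36 the 100 nM points lie from 1.28 to 3.62 except for Pdgfra at -0.48.

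Without RA the genes moved in different directions. From DoD 0 to DoD 2, Lox (1.57), Pdgfra (no less than 2.64) and Pdgfrb (no less than 1.25) were called higher and Thy1 was called lower, 3 and 1 of 8 genes (6.07% and 4.74% of all genes). With a detection signal of 100 the bound of Pdgfra was 0.86, and with 50 that of Pdgfrb was 0.47. From DoD 2 to C of DoD 8 none of 7 was called (6.08% of all genes were called higher and 4.76% lower), with Lox at 0.91 the nearest. From C of DoD 8 to C of DoD 36, Dcn, Lum and Pdgfra were called higher and Fn1 lower, 3 and 1 of 8 (22.7% and 16.5% of all genes), a share of the members not far above that of all genes. Among R8 arrays 5 of 9 were higher on DoD 36 and 1, Pdgfrb (-1.07), was lower (18.2% and 14.7% of all genes), and among R7 arrays 6 of 9 were higher and none lower (17.6% and 14.5%).

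**Figure D5:**
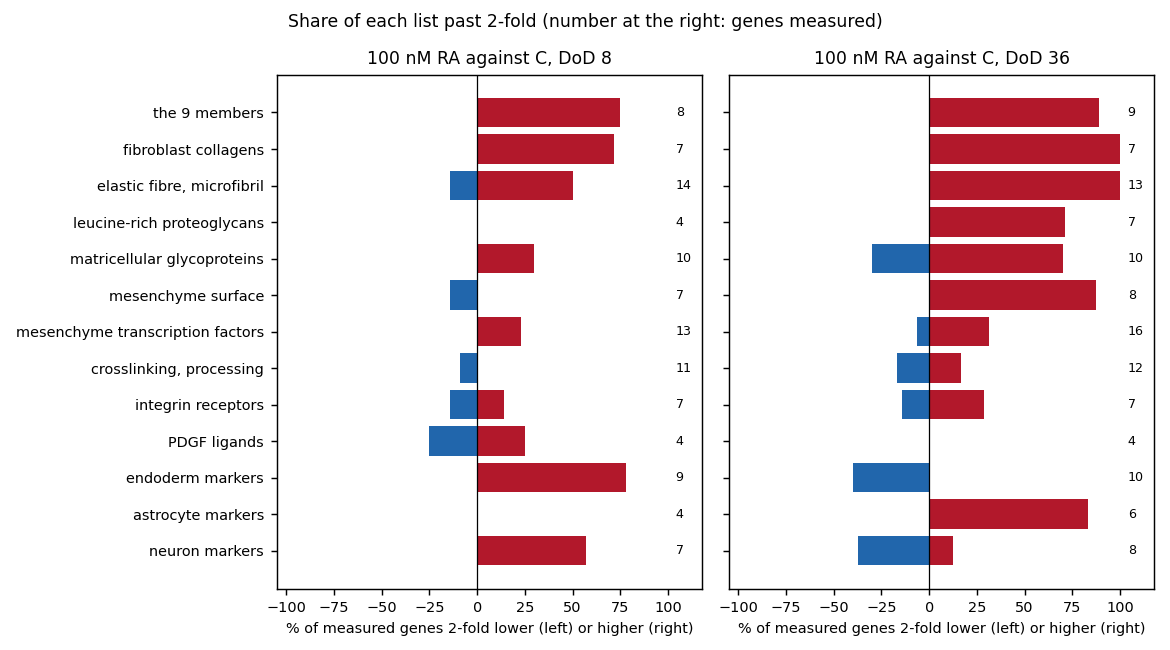
Share of measured genes at least 2-fold higher (right, red) or lower (left, blue) in 100 nM RA than in C, on DoD 8 and DoD 36, for the 9 genes, 9 lists of related matrix and mesenchyme genes and 3 lists of cell markers, with the number measured at the right. On DoD 36 all 7 collagen and all 13 elastic fibre genes are higher, while the 4 PDGF ligands show no bar and 4 of 10 endoderm markers are lower.

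The genes nearest in course to the members were sought among 5030 others, by Pearson's r of the log2 signal over the 9 arrays. Arrays of the same day share their culture time, and r is given as a description. Vstm4 (0.995), Cemip (0.979) and Tril (0.978) were nearest to Dcn. Osr1 (0.993), a transcription factor of lateral mesoderm and kidney, Antxr2 (0.99) and P3h3 (0.987), a collagen prolyl hydroxylase, were nearest to Lum. Serpinf1 (0.979) and Col16a1 (0.974), a collagen gene, were among the 3 nearest to Lox, after Ccnd2 (0.985), a cyclin. Nt5m (0.992) was nearest to Pdgfra and Igfbpl1 (0.992) to Twist1. Thy1, Fn1 and Pdgfrb had lower values, with Kif1a (0.957) for Thy1, Sorl1 (0.948) for Fn1 and Hoxa5 (0.895) second for Pdgfrb. Hc (0.979) was nearest to Postn, which was detected on 3 arrays only. Among the members, r was 0.94 between Dcn and Lum, which was not detected on 4 arrays, and also 0.94 between Dcn and Pdgfra.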

How the data were processed

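Total RNA was measured on Illumina MouseWG-6 v1.0 BeadChips, with 1 array for each of 9 conditions. The authors normalized the signals with median centering in GeneSpring GX 10.02 (also in the submitters' processing notes), and the deposited values are on the log2 scale, with 1 constant per array and 1 baseline per probe removed. A second deposited table has 9 columns under names that match no sample, and none was used.

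Ratios between arrays came out as whole numbers of steps above a floor of 50 steps, within 0.002 steps or 1.5e-06 of their size, which returned the signals of 46643 probes, 2.51% of them approximately and those of the members exactly. The recovery was tested on simulated data. A step was taken as 0.1 signal units, which cancels in ratios and bears on detection only. For the detection level, probes at the floor on 6 or more of the 8 other arrays were taken as background, and the 0.99 quantile of their signal had a median of 29.1 among arrays. It was applied to unscaled signals. Arrays were then scaled to the median of 16146 probes detected on all arrays (factors 0.813 to 1.148), and printed signals are scaled. A gene was read by its brightest probe. Where 1 of 2 arrays was not detected, the difference is a bound against the detection level. With 1 array per condition no test was made, and the number of arrays limits the precision.

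Probes were named by the platform annotation, with symbols brought up to date by gene identifier. Of them, 32794 probes had 1 symbol, 55 had several, and the rest were not named. Windows of 250 bases before gene starts came from RefSeq (GRCm38.p6). The search for members left out a chromosome, and 4 members had a window in the rest. All probes of the members are given. From each of 22 gene lists, up to 4 genes with the largest increase and 4 with the largest decrease in R7 were eligible to be named, and the 3 genes nearest in course to each member. Members and lists were chosen with earlier results of these data known. Another 9 settings of scaling, detection and probe choice were tried. Python 3.11.15, numpy 2.4.6, pandas 2.3.3, numba 0.67.0 and matplotlib 3.10.9 were used.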

Additional observations from a re-analysis of the deposited data

Results flagged for a closer look

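For 3 members the difference between RA and C took opposite directions on DoD 8 and DoD 36. With 1 array per condition the difference between days was not tested. Fn1 in R8 was at -1.10 on DoD 8 and 0.38 on DoD 36, a gap of 1.48 on the log2 scale, and a dimmer Fn1 probe was lower than C in R8 on both days (-1.07 and -1.53). Fn1 in R7 was at -0.10 and 2.34, a gap of 2.44, with the first value within its yardstick SD of 0.18. Pdgfrb in R8 was at 0.91 on DoD 8 and -0.53 on DoD 36, a gap of -1.43, at signals of 75.7 to 158.8, where the yardstick SD was 0.393 and 0.456. Pdgfra in R7 was at 2.64 on DoD 8 and -0.48 on DoD 36, a gap of -3.12, and the direction on DoD 36 depended on the scaling.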

How the results depend on the processing

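Under the 9 other settings, 100 of 108 medians over the members stayed within 1 yardstick SD of the reported value and none of the called medians changed sign, and 202 of 216 counts stayed within 1.5 times. Of 886 values of single genes, 763 stayed within 1 yardstick SD and 123 moved further, with 31 that crossed the 2-fold limit in the same direction and 15 that changed sign. Dcn in R7 against R8 of DoD 36, reported at 1.15, was 0.92 with quantile normalization. Without scaling, the median of the members on DoD 36 was 1.03 in R8 and 2.51 in R7 against C. With quantile normalization it was 1.62 in R7 against R8 of DoD 36. For R7 of DoD 36 against R7 of DoD 8, reported at 1.85, it was 2.06 without scaling, 2.08 with quantile normalization, 1.51 and 1.19 with detection signals of 50 and 100, and 1.19 with the mean of all probes, which also gave 1 lower gene in place of none. For R8 of DoD 36 against R8 of DoD 8, the 1 lower gene became 2 with the 0.75 quantile as the scale, with the deposited log2 values without a detection limit and with the mean of probes, and 0 without scaling and with a detection signal of 100. With the mean of probes, R9 had 1 higher gene on DoD 8 in place of 2, and R8 had 0 lower genes in place of 1. With a detection signal of 100, 1 gene in place of 3 was higher on DoD 2 than on DoD 0. With the deposited values without a detection limit, DoD 2 had 2 lower genes in place of 1, C of DoD 8 had 1 higher than DoD 2 in place of none, and R9 against C and R7 against R8 on DoD 8 had 1 lower in place of none, the last also with the detection level of each array's own background, a setting chosen after seeing the data. The cause was not tested. No paired analysis was possible because each condition had 1 array. Dim probes, those of Postn and Pdgfrb above all, were limited by signal over background, and each value rests on 1 array of mixed RNA.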
